A study of Mus musculus with 18 samples.

Results

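Drug efflux pumps and the xenobiotic receptors that control them were examined in mouse colon as a set of 7 genes, chosen by symbol out of 35976 gene symbols measured. The set holds 5 pumps of the ATP-binding cassette (ABC) family, Abcb1a, Abcb1b, Abcg2, Abcc2 and Abcc3, and 2 nuclear receptors, Nr1i2 and Nr1i3. RNA sequencing covered 18 libraries from about 100 mg of colon each, taken on day 2, with 6 libraries in each of 3 groups. The first group had colitis induced by TNBS, a hapten that inflames the colon, and received ISM012-042, a compound that per the series title inhibits PHD and stays in the gut. PHD enzymes hydroxylate hypoxia-inducible factor when oxygen is present, which leads to its breakdown. The second group, Vehicle, had TNBS colitis and received vehicle, and the third, sham, had no colitis. The sources used here give no strain, genotype, age, dose or route, and nothing states that the libraries of a group came from separate animals, so p-values measure the spread between these libraries. Values are TPM, transcript abundances corrected for gene length and scaled to the same total in each library, so the depth is unknown and counting error cannot be put on them.

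The pumps use ATP to move drugs, plant compounds, bile salts and conjugated waste out of cells. In the gut epithelium, P-glycoprotein (the product of Abcb1a and Abcb1b in mice), the breast cancer resistance protein (Abcg2) and MRP2 (Abcc2) face the lumen, whereas MRP3 (Abcc3) faces the blood side. Nr1i2 encodes PXR and Nr1i3 encodes CAR, which sense drugs and bile acids, pair with retinoid X receptors and switch on pumps and detoxifying enzymes, CAR mainly in liver. Mice that lack Abcb1a are known to develop colitis spontaneously.

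The genes lie apart in the genome except for the P-glycoprotein pair. In RefSeq coordinates of GRCm38.p6 the gene Abcb1a spans chr5:8567091-8748575 and Abcb1b chr5:8798147-8866314, both on the plus strand. Abcg2 spans chr6:58584491-58692451, Abcc2 chr19:43782308-43838332 and Nr1i3 chr1:171213934-171218845, all on the plus strand. Abcc3 spans chr11:94343295-94393017 and Nr1i2 chr16:38248349-38294849, both on the minus strand. All are protein-coding.

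The promoters of the receptor pair are shown because Nr1i3 was the member whose level differed most between groups while its relative Nr1i2 passed in no comparison, a choice made after the values were seen. Each is the 250 bases before a RefSeq transcription start on GRCm38.p6, read 5′ to 3′ on the gene's strand, chr1:171213720-171213969 (plus) for Nr1i3 and chr16:38294825-38295074 (minus) for Nr1i2. Capitals mark CACGTG, a palindrome that holds ACGTG on both strands. ACGTG is a core that hypoxia-inducible factor is known to bind, and binding of this or any other factor here was not tested.
Nr1i3: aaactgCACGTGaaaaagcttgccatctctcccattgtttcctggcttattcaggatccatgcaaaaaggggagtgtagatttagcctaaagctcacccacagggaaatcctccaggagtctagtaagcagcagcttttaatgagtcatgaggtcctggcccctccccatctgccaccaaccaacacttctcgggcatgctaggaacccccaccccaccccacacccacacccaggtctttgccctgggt
Nr1i2: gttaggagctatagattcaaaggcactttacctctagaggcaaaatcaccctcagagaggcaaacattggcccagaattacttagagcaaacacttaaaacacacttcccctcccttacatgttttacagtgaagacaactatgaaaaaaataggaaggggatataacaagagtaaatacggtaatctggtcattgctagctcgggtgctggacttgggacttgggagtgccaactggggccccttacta
The CACGTG of Nr1i3 lies 244 to 239 bases before the start used for its window, and the Nr1i2 window holds none of the motifs searched. Both starts used lie inside the gene spans given above, so each window ends within its gene. RefSeq windows were matched for 6 of the 7 members (8 windows) and searched on both strands, against all 32851 mouse windows of this length. The core ACGTG occurs in 16.6% of all windows. The core of the aryl hydrocarbon receptor, GCGTG, occurs in 28.2%. The nuclear receptor half-site AGGTCA occurs in 14.0% and its variant, spelled AGTTCA, in 11.8%. The palindrome CACGTG, added to the search after the Nr1i3 sequence had been read, occurs in 6.02%. The Abcb1b window holds 1 match to ACGTG and the Abcb1a window 1 match to the variant half-site. The half-site AGGTCA occurs once in the Abcc2 window and in windows of 2 of the Abcg2 starts. These matches describe letters only.

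Abcb1a and Abcb1b are near copies, and the stretch shown next matters for how their reads could be told apart. Their coding sequences are 3828 bases each and 88.0% identical, 20.3% of all 50-base windows of Abcb1a occur letter for letter in Abcb1b, and the longest identical run covers 338 bases. The 100 bases from its middle, positions 1476 to 1575 of the Abcb1a coding sequence (GENCODE transcripts, chromosome 5), are given in lower case throughout since no base differs.
Abcb1a and Abcb1b: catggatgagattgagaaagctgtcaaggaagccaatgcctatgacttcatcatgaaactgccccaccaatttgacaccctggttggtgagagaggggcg
The sources used here do not say how the upstream counting divided reads from such runs, so the low Abcb1b values are uncertain beside the high Abcb1a values.

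The colon carried the pumps at very unequal levels, and because TPM is per length, levels can be compared between genes. Over the 18 libraries Abcb1a had a median level of 158 TPM, above the medians of 95.6% of the 14129 genes tested. Abcg2 followed at 62.2 TPM, Abcc3 at 49.8 TPM and the PXR gene Nr1i2 at 45.2 TPM. Abcb1b stood at 3.26 TPM, Nr1i3 at 1.10 TPM and Abcc2 at 0.103 TPM. Abcb1a exceeded Abcg2 in 17 of 18 libraries, and Nr1i2 exceeded Abcb1b in 18 of 18. The middle neighbours were not cleanly ordered, since Abcg2 exceeded Abcc3 in 14 libraries and Abcc3 exceeded Nr1i2 in 13. Abcb1b exceeded Nr1i3 in 6 of 6 ISM012-042 libraries and 6 of 6 Vehicle libraries, but in 2 of 6 sham libraries.

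**Figure D1:**
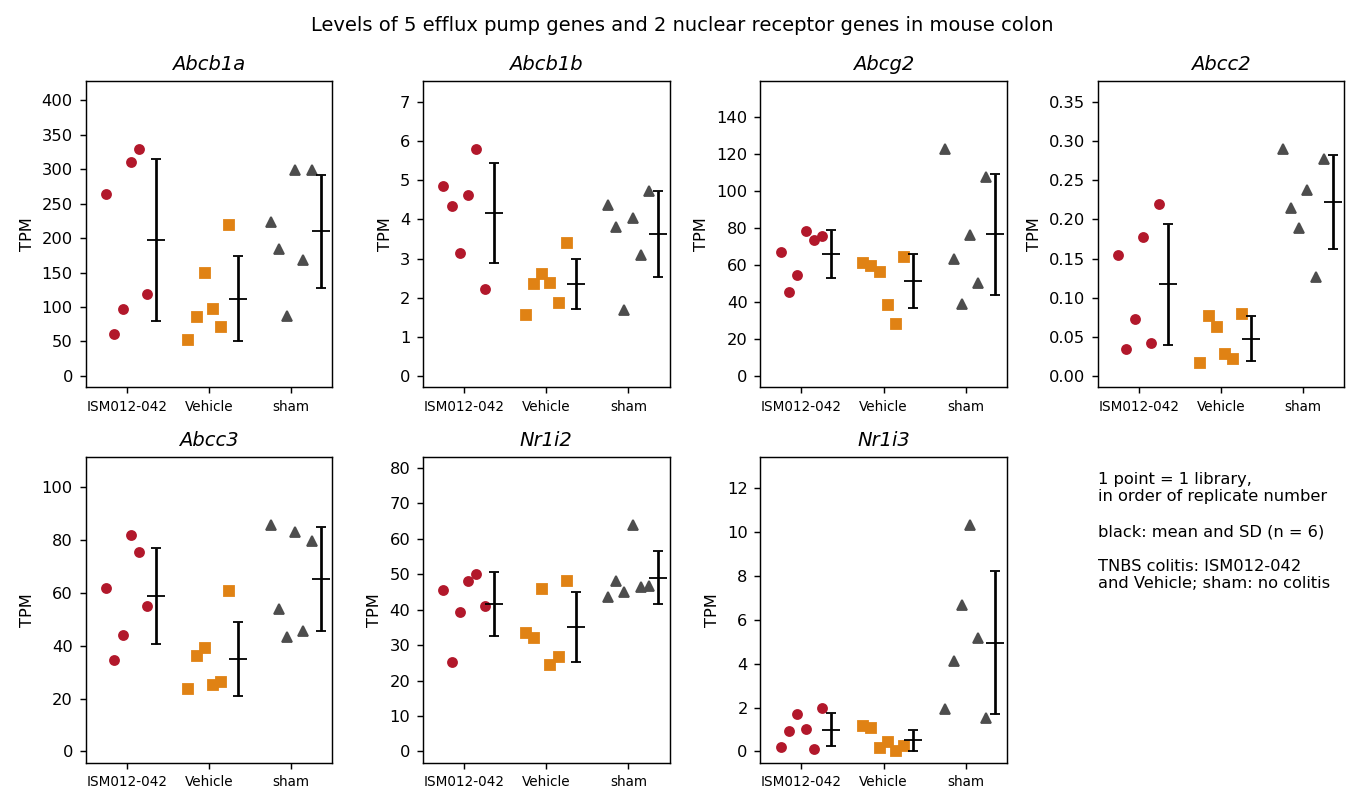
Level in TPM (vertical axes, linear and scaled per gene) of each of the 7 genes in every library, with 1 point per library in order of replicate number and the mean and SD (n = 6) in black. Vehicle libraries of Nr1i3 reach 1.15 TPM and all lie below the lowest sham library at 1.53 TPM, whereas for Abcb1a the groups overlap widely.

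A gene was tested where it reached 1 TPM in at least 6 libraries, which 6 of the 7 members did. Abcc2 reached 1 TPM in 0 libraries and was left out of the fit across genes. Nr1i3 reached it in 3 ISM012-042, 2 Vehicle and 6 sham libraries, so it entered the fit through sham. Differences are of log2(TPM + 1), which understates the change of low genes, given ± SE with limma's p adjusted over all 14129 genes by Benjamini-Hochberg, and a difference passed at an adjusted p under 0.05. Each group enters 2 of the 3 comparisons, so these are not independent of each other. In bulk tissue, fewer cells of a type and less RNA per cell cannot be told apart.

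The libraries differed within the groups and also between them. Summed TPM of 10 epithelial markers spanned 11450 to 13821 in ISM012-042, 7065 to 16306 in Vehicle and 10294 to 16238 in sham, and 0 of the 10 passed in any comparison. Their median difference was -0.37 in Vehicle against sham, with 8 of 10 negative. It was 0.15 in ISM012-042 against Vehicle, with 10 of 10 positive, and -0.21 in ISM012-042 against sham, with 7 of 10 negative. Mitochondrial transcripts made up 20.1% to 39.8% of TPM in ISM012-042, 22.4% to 57.8% in Vehicle and 29.4% to 42.6% in sham. Of markers of endothelial cells (10 tested), macrophages (10), T cells (8), adipocytes (10), smooth muscle (10) and mesothelial cells (7), 0 passed in any comparison, which says little for ISM012-042 against Vehicle, where no gene of any kind passed. The lists nevertheless differed in summed level or in the sign of their differences. Endothelial markers summed to 60.1 to 286 TPM in ISM012-042, 52.4 to 90.7 TPM in Vehicle and 34.2 to 55.0 TPM in sham, and mesothelial markers to 138 to 311 TPM, 89.6 to 252 TPM and 54.9 to 116 TPM in the same groups. In ISM012-042 against Vehicle all 10 adipocyte and all 10 smooth muscle markers had positive differences, with medians of 1.20 and 0.50, where 92.1% of all genes were positive with a median of 0.30. In Vehicle against sham the adipocyte median was 0.94, with 9 of 10 positive, and the smooth muscle median -0.68, with 10 of 10 negative. Endothelial, macrophage and T cell medians lay at 0.41, 0.48 and 0.32 in ISM012-042 against Vehicle, and at 0.28, 0.42 and 0.32 in Vehicle against sham, where the median of all genes was -0.07. The part of these lists in the results on the pumps and receptors was not tested. Hoxb13, a marker of the distal end of the colon, spanned 0.329 to 219 TPM in ISM012-042, 1.52 to 179 TPM in Vehicle and 9.05 to 288 TPM in sham. Above a log2(TPM + 1) of 5 lay 4 ISM012-042, 3 Vehicle and 4 sham libraries, and these are called high Hoxb13 here. The 3 Vehicle libraries of low Hoxb13 were also the 3 Vehicle libraries over 40% mitochondrial.

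Vehicle was compared with sham for what colitis did to the pump and receptor genes. The CAR gene Nr1i3 fell in Vehicle to a mean of 0.502 ± 0.481 TPM, against 4.95 ± 3.26 TPM in sham (SD, n = 6 each), which is 10.1% of the sham mean. It was the 1 of 6 tested members to pass, lower in Vehicle, where 4.46% of all genes tested passed, 4.13% as lower and 0.326% as higher. That split of 46 higher and 584 lower genes depends on the scaling, since it was 511 higher and 1004 lower with median-ratio scaling, 541 and 928 with quantile normalization, 403 and 905 with mitochondrial transcripts left out of the total, and 287 and 555 with array weights. The pumps Abcb1a and Abcc3 had Vehicle means of 53.3% and 53.9% of the sham means without passing, and Nr1i2, Abcg2 and Abcb1b stood at 71.6%, 67.0% and 65.2%.

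Nr1i3 had 1.15, 1.05, 0.155, 0.428, 0 and 0.238 TPM in Vehicle replicates 1 to 6, and 1.91, 4.14, 6.65, 10.3, 5.17 and 1.53 TPM in sham replicates 1 to 6. Every Vehicle library lay below every sham library, and Vehicle replicate 5 was listed at 0. The difference was -1.86 ± 0.34 (95% interval -2.58 to -1.14, limma adjusted p = 0.00616). Its size depends on the pseudocount, at -3.27 ± 0.68 with 0.1 TPM added (adjusted p = 0.0108) and -0.80 ± 0.16 with 5 TPM added (adjusted p = 0.00922). A complete separation of Vehicle from sham, in either direction, occurred for 2.60% of all genes tested. Without the 4 libraries over 40% mitochondrial (3 Vehicle and 1 sham) the difference was -1.46 ± 0.46 and did not pass (adjusted p = 0.0609, with 2.56% of all genes passing as lower), and with the epithelial marker level as a covariate it was -1.81 ± 0.39 (adjusted p = 0.0215). The 3 Vehicle libraries left out were all those of low Hoxb13, while both low Hoxb13 sham libraries stayed. Mitochondrial share and Hoxb13 therefore cannot be told apart in that fit.

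Most markers of surface colonocytes, the mature absorptive cells that meet the lumen, also stood lower in Vehicle than in sham. Of 10 tested 6 fell in Vehicle against sham, where 4.13% of all genes did, with summed levels of 5256 to 11156 TPM in Vehicle and 9976 to 16187 TPM in sham and none at 0, while 3 of 9 tested neutrophil markers rose, with summed levels of 179 to 25426 TPM in Vehicle and 34.0 to 718 TPM in sham, and 0.326% of all genes rose. The median difference of the 10 colonocyte markers was -1.45, with 9 of 10 negative. Of 6 markers of hepatocytes, where CAR is best known, 3 were tested, 1 fell in Vehicle, and Fgb was at 0 in all Vehicle and all sham libraries. The part of these shifts in the Nr1i3 result was not tested beyond the fits given. Nr1i3 also shares sequence with a neighbour, since 74.9% of its 4414 exonic bases in GENCODE overlap exons of Tomm40l on the opposite strand. In RefSeq the overlap is smaller, since the spans of these genes share 1044 bases. Tomm40l, which encodes a mitochondrial import protein, averaged 12.6 ± 4.06 TPM (SD, n = 6) in Vehicle and 14.9 ± 1.26 TPM (SD, n = 6) in sham, a difference of -0.28 ± 0.20 (adjusted p = 0.490). The sources used here do not say whether counting used strand.

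Abcc2, which exports glutathione and glucuronide conjugates and is known mainly from liver and upper small intestine, followed the same separation at a level close to 0. It spanned 0.0160 to 0.0790 TPM in Vehicle, with a median of 0.0455 TPM, and 0.126 to 0.290 TPM in sham, with a median of 0.226 TPM. Every Vehicle library lay below every sham library. The difference of mean log2(TPM + 1) was -0.22, and its p of 0.00216 in an exact two-sided permutation test is the smallest that groups of 6 can give. In the limma fit with no filter on low values, where 1.97% of 25729 genes passed as lower, its adjusted p was 0.0171. Among those genes 1.35% had every Vehicle library below every sham library.

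The P-glycoprotein gene Abcb1a spanned 51.5 to 218 TPM in Vehicle, with a median of 91.4 TPM, and 86.4 to 300 TPM in sham, with a median of 204 TPM. The ranges overlapped, with 3 of 6 Vehicle libraries below every sham library. The difference was -0.95 ± 0.44 (95% interval -1.87 to -0.04, limma adjusted p = 0.255). Its near copy Abcb1b spanned 1.55 to 3.40 TPM in Vehicle, with a median of 2.37 TPM, and 1.67 to 4.74 TPM in sham, with a median of 3.92 TPM. The ranges again overlapped, and the difference was -0.44 ± 0.21 (adjusted p = 0.279).

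Abcc3, the exporter on the blood side, spanned 23.6 to 60.5 TPM in Vehicle, with a median of 31.2 TPM, and 43.1 to 85.7 TPM in sham, with a median of 66.8 TPM. In 5 of 6 Vehicle libraries the level lay below every sham library, and replicate 6 was the exception. The difference was -0.90 ± 0.26 (95% interval -1.44 to -0.36) and missed the threshold (limma adjusted p = 0.0533), passing without Vehicle replicate 6 (-1.07 ± 0.24, adjusted p = 0.0179), without sham replicate 3 (adjusted p = 0.0343) and without ISM012-042 replicate 2 (adjusted p = 0.0405). Abcg2, which exports urate and many drugs, spanned 27.8 to 64.1 TPM in Vehicle, with a median of 57.9 TPM, and 39.1 to 123 TPM in sham, with a median of 69.7 TPM. The ranges overlapped and the difference was -0.52 ± 0.26 (adjusted p = 0.312). With the epithelial marker level as a covariate Abcg2 stood at -0.17 ± 0.19 (limma adjusted p = 0.607). In that fit Abcc3 stood at -0.73 ± 0.26 (adjusted p = 0.121).

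The PXR gene Nr1i2 stood lower in Vehicle without passing. It spanned 24.5 to 48.2 TPM in Vehicle, with a median of 32.7 TPM, and 43.7 to 64.0 TPM in sham, with a median of 46.6 TPM. In 4 of 6 Vehicle libraries it lay below every sham library, and the difference was -0.50 ± 0.19 (95% interval -0.89 to -0.11, limma adjusted p = 0.141).

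**Figure D2:**
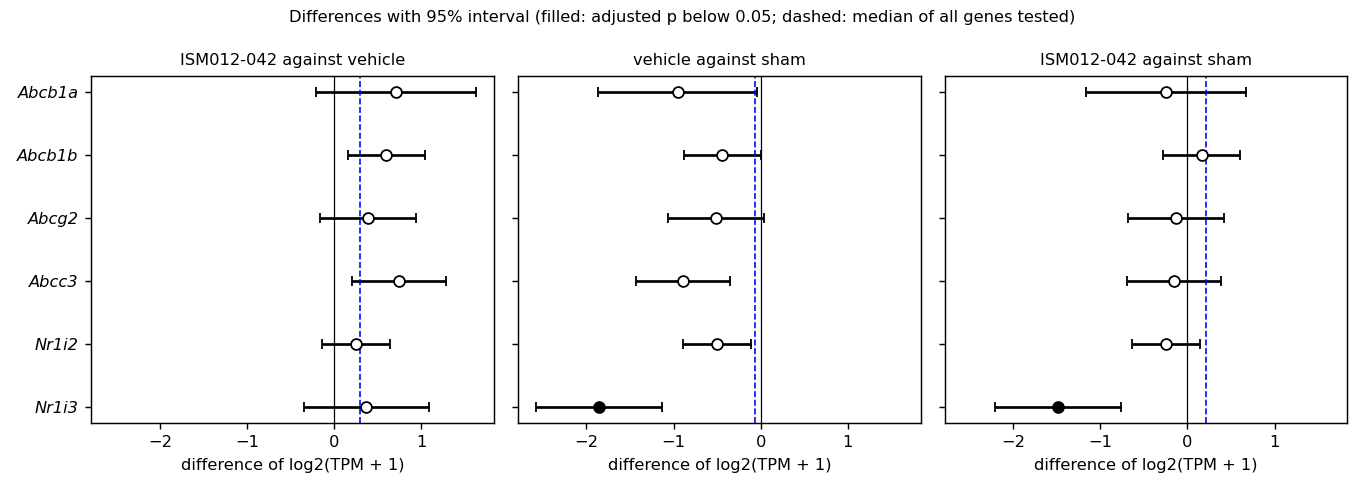
Difference of log2(TPM + 1) with its 95% interval (horizontal axis) for the 6 tested genes in the 3 comparisons, filled where limma's adjusted p was under 0.05, with the median of all genes tested as a dashed line. Nr1i3 alone is filled, at -1.86 in Vehicle against sham and -1.49 in ISM012-042 against sham, and the intervals of all 6 genes in ISM012-042 against Vehicle include the median of all genes at 0.30.

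ISM012-042 was compared with Vehicle for the effect of the PHD inhibitor within colitis. The mean levels of Abcb1a, Abcb1b and Abcc3 were 1.76, 1.77 and 1.67 times as high under ISM012-042, but 0 of the 6 tested members passed, as did 0% of all 14129 genes in limma. At an unadjusted p under 0.05 stood 2 of the members, Abcb1b and Abcc3, and 2688 of all genes, 2670 of them higher. Over all genes tested 92.1% had a positive difference and the median was 0.30, and after scaling libraries by median ratios this median became 0.01. The members are therefore also given relative to that shift.

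Abcb1a spanned 61.4 to 329 TPM under ISM012-042, with a median of 191 TPM, and 51.5 to 218 TPM in Vehicle, with a median of 91.4 TPM. ISM012-042 replicates 1, 4 and 5 lay above every Vehicle library and the other 3 inside the Vehicle range. The difference was 0.71 ± 0.44 (95% interval -0.21 to 1.63, limma adjusted p = 0.324), or 0.42 above the median of all genes. Abcb1b spanned 2.22 to 5.80 TPM under ISM012-042, with a median of 4.49 TPM, and 1.55 to 3.40 TPM in Vehicle, with a median of 2.37 TPM. In 4 of 6 ISM012-042 libraries it lay above every Vehicle library, and the difference was 0.60 ± 0.21 (95% interval 0.16 to 1.04, adjusted p = 0.233), or 0.31 above the median of all genes.

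Abcc3 spanned 34.6 to 81.8 TPM under ISM012-042, with a median of 58.4 TPM, and 23.6 to 60.5 TPM in Vehicle, with a median of 31.2 TPM. In 3 of 6 ISM012-042 libraries it lay above every Vehicle library. The difference was 0.75 ± 0.26 (95% interval 0.21 to 1.29, limma adjusted p = 0.233), or 0.45 above the median of all genes. With median-ratio scaling it was 0.43 ± 0.28 (adjusted p = 0.832), and Abcb1a and Abcb1b stood at 0.38 ± 0.47 and 0.36 ± 0.21.

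Abcg2 and the receptor genes stood closer to the general shift. Abcg2 spanned 45.5 to 78.2 TPM under ISM012-042 and 27.8 to 64.1 TPM in Vehicle, with a difference of 0.38 ± 0.26 (95% interval -0.17 to 0.94, limma adjusted p = 0.359). Nr1i2 spanned 25.4 to 50.1 TPM under ISM012-042 and 24.5 to 48.2 TPM in Vehicle, with a difference of 0.25 ± 0.19 (95% interval -0.14 to 0.64, adjusted p = 0.385) that became -0.07 ± 0.22 with median-ratio scaling. The ranges overlapped for both genes, with 4 of 6 ISM012-042 libraries above every Vehicle library for Abcg2 and 2 of 6 for Nr1i2.

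Nr1i3 spanned 0.101 to 1.99 TPM under ISM012-042, with a median of 0.973 TPM, and 0 to 1.15 TPM in Vehicle, with a median of 0.333 TPM. The groups overlapped, with 2 ISM012-042 libraries above every Vehicle library, and the difference was 0.37 ± 0.34 (95% interval -0.35 to 1.09, limma adjusted p = 0.470). Abcc2 spanned 0.0340 to 0.220 TPM under ISM012-042, with a median of 0.114 TPM, against 0.0160 to 0.0790 TPM in Vehicle. Its difference was 0.090 (exact two-sided permutation p = 0.0801).

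ISM012-042 was set against sham for what still differed from uninflamed colon under the compound. Nr1i3 fell, to 0.992 ± 0.765 TPM in ISM012-042 against 4.95 ± 3.26 TPM in sham (SD, n = 6 each), a difference of -1.49 ± 0.34 (95% interval -2.21 to -0.76, limma adjusted p = 0.0350). It was again the 1 of 6 tested members to pass, lower, where 1.42% of all genes passed, 0.871% as lower and 0.545% as higher. This split turned round with the scaling, with 77 higher and 123 lower genes as reported, 144 and 628 with median-ratio scaling, 257 and 546 with quantile normalization, 729 and 398 with mitochondrial transcripts left out of the total, and 2322 and 938 with array weights. In 4 of 6 ISM012-042 libraries it lay below every sham library, while replicates 3 and 6, at 1.72 and 1.99 TPM, reached the level of the lowest sham libraries. The call was lost with no filter on low values (adjusted p = 0.0639) and with a pseudocount of 0.1 (-2.37 ± 0.68, adjusted p = 0.0916). It was lost at adjusted p from 0.0624 to 0.0997 without any one of sham replicates 2, 3, 4 or 5 or of ISM012-042 replicates 1, 2, 4 or 5, and at 0.0680 without the libraries over 40% mitochondrial, where 1.54% of all genes passed as lower. Of the 10 surface colonocyte markers 2 fell here, with summed levels of 4723 to 14897 TPM in ISM012-042 and 9976 to 16187 TPM in sham. Their median difference was -1.20, with 9 of 10 negative.

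None of the tested pumps passed in ISM012-042 against sham, nor did the PXR gene. Abcb1a differed by -0.24 ± 0.44 (95% interval -1.16 to 0.67), Abcb1b by 0.16 ± 0.21 (-0.28 to 0.60), Abcg2 by -0.13 ± 0.26 (-0.68 to 0.42), Abcc3 by -0.15 ± 0.26 (-0.69 to 0.39) and Nr1i2 by -0.25 ± 0.19 (-0.64 to 0.14), with limma adjusted p from 0.413 to 0.763. The intervals of Abcb1a, Abcg2, Abcc3 and Nr1i2 include decreases of over 0.6, so equal levels are not shown. With the Hoxb13 covariate and median-ratio scaling the differences were further from 0, at -0.82 ± 0.38 for Abcb1a (95% interval -1.62 to -0.02), -0.51 ± 0.21 for Abcg2 (-0.94 to -0.07), -0.56 ± 0.23 for Abcc3 (-1.05 to -0.07) and -0.57 ± 0.22 for Nr1i2 (-1.02 to -0.11), with limma adjusted p from 0.120 to 0.188. That fit was added after the values were seen, and other fits went the other way. With array weights Abcb1a, Abcg2 and Abcc3 stood at 0.24, 0.08 and 0.21, and Nr1i2 at -0.08. The epithelial covariate with median-ratio scaling also gave positive differences for Abcb1a, Abcg2 and Abcc3. The median of all genes was 0.21 in this comparison, and relative to it these pumps and Nr1i2 stood between -0.46 and -0.05. Abcc2 averaged 0.117 ± 0.0777 TPM in ISM012-042 and 0.222 ± 0.0604 TPM in sham (SD, n = 6 each), with 3 of 6 ISM012-042 libraries below every sham library. Its difference was -0.13 (exact two-sided permutation p = 0.0325), and in limma with no filter its adjusted p was 0.207.

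The level of Nr1i3 also followed Hoxb13. Over the 18 libraries the Pearson correlation of their deviations from the group means, in log2(TPM + 1), was 0.79, between values that share a library total and the piece of colon sampled. In high Hoxb13 libraries Nr1i3 spanned 0.943 to 1.99 TPM in ISM012-042 (4 libraries), 0.238 to 1.15 TPM in Vehicle (3 libraries) and 4.14 to 10.3 TPM in sham (4 libraries). In low Hoxb13 libraries it spanned 0.101 to 0.206 TPM in ISM012-042 (2 libraries), 0 to 0.428 TPM in Vehicle (3 libraries) and 1.53 to 1.91 TPM in sham (2 libraries). Within either set every library of both colitis groups lay below every sham library, although low sham libraries and high ISM012-042 libraries overlapped when the sets were pooled. Such a separation held for 1.76% of all genes tested in the high set, for 22.4% in the low set and for 1.28% in both. This split was chosen after the values were seen.

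Fits within each set reuse the same libraries and a filter that Nr1i3 passed through sham, so they are no independent support. In them the Nr1i3 decrease passed both times. In Vehicle against sham it was -2.04 ± 0.30 in high Hoxb13 libraries (limma adjusted p = 0.0131, with 1.97% of all genes passing as lower) and -1.20 ± 0.24 in low Hoxb13 libraries (adjusted p = 0.00673, with 12.9% passing as lower). In ISM012-042 against sham it was -1.61 ± 0.28 in high Hoxb13 libraries (adjusted p = 0.0418, with 0.290% passing as lower) and -1.24 ± 0.26 in low Hoxb13 libraries (adjusted p = 0.0221, with 1.38% passing as lower). With the Hoxb13 level as a covariate over all libraries the differences were -1.23 ± 0.23 in ISM012-042 against sham (adjusted p = 0.00991, with 1.92% passing as lower) and -1.43 ± 0.24 in Vehicle against sham (adjusted p = 0.00430, with 3.20% passing as lower), where Abcc3 passed too at -1.02 ± 0.26 (adjusted p = 0.0363). With median-ratio scaling added to the covariate, Abcb1a at -1.33 ± 0.39, Abcb1b at -0.60 ± 0.16 and Abcc3 at -1.06 ± 0.24 also passed in Vehicle against sham (adjusted p of 0.0370, 0.0268 and 0.0130), where 7.34% of all genes passed as lower. In ISM012-042 against sham Nr1i3 was then the 1 member to pass, where 4.97% did as lower.

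**Figure D3:**
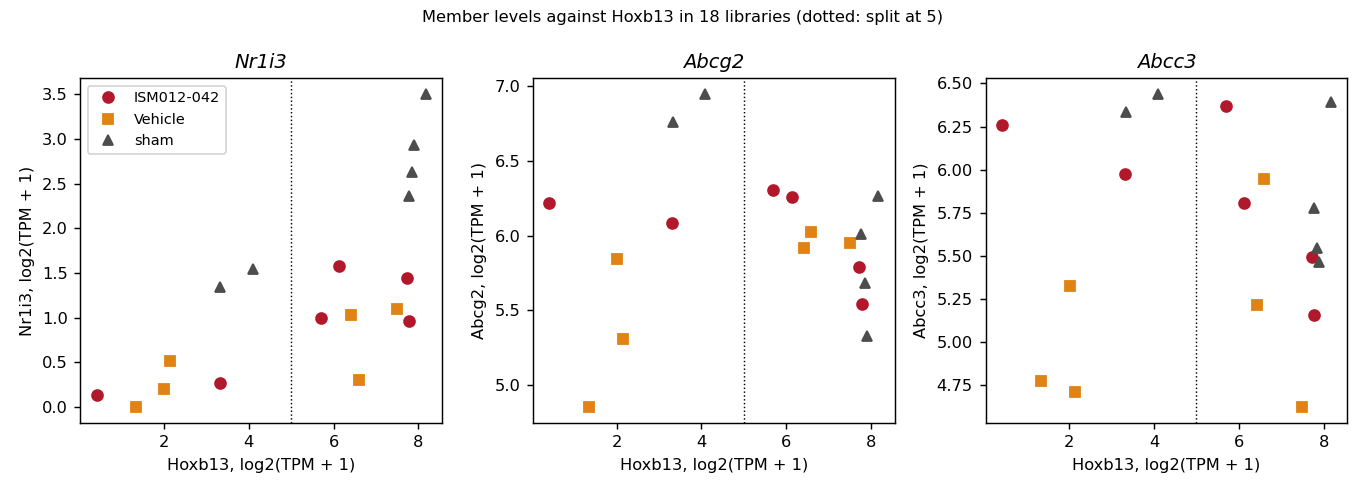
Levels of Nr1i3, Abcg2 and Abcc3 (vertical axes) against Hoxb13 (horizontal axis), both as log2(TPM + 1), 1 point per library, with a dotted line at the split of 5. For Nr1i3 all sham libraries lie above the colitis libraries on their own side of the line, whereas for Abcg2 the 2 sham libraries of low Hoxb13, at 108 and 123 TPM, stand above the others.

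For the Vehicle against sham difference, 25.1% of all genes passed the test of a difference between the Hoxb13 sets. Among the 6 tested members the share was no higher, and the 1 that passed was Abcg2. It spanned 27.8 to 56.3 TPM in Vehicle and 108 to 123 TPM in sham in low Hoxb13 libraries, but 59.4 to 64.1 TPM in Vehicle and 39.1 to 76.0 TPM in sham in high Hoxb13 libraries. The Vehicle against sham difference was -1.52 ± 0.29 in low Hoxb13 libraries (limma adjusted p = 0.00509) and 0.15 in high Hoxb13 libraries. The difference between these differences was 1.67 ± 0.39 (interaction term in limma, adjusted p = 0.0145), a test that 25.1% of all genes passed. In low Hoxb13 libraries Abcb1a and Abcc3 also fell in Vehicle against sham, with differences of -1.35 ± 0.30 (adjusted p = 0.0123) and -1.45 ± 0.27 (adjusted p = 0.00425), so 4 of 6 tested members passed there, where 12.9% of all genes passed as lower. Their interaction terms did not pass, at 0.59 ± 0.86 for Abcb1a and 0.92 ± 0.50 for Abcc3 (adjusted p of 0.636 and 0.177). In ISM012-042 against Vehicle 0 members passed in low Hoxb13 libraries, and 0.0212% of all genes passed as higher and 0.0425% as lower. The low set rests on 3 Vehicle and 2 sham libraries.

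Between libraries every pair of tested pumps correlated positively. In deviations from the group means over the 18 libraries, which share their totals, Abcb1a correlated with Abcc3 at a Pearson r of 0.90, with Abcb1b at 0.76 and with Nr1i2 at 0.74. Abcc3 correlated with Abcg2 at 0.75 and with Nr1i2 at 0.75. The other pump pairs stood lower, with Abcb1b at 0.67 with Abcc3, and Abcg2 at 0.59 with Abcb1a and 0.52 with Abcb1b. Nr1i2 stood at 0.49 with Abcg2 and 0.32 with Abcb1b. Over all other genes tested the median r was -0.05 for Abcb1a, 0.13 for Abcb1b, 0.27 for Abcg2 and 0.08 for Abcc3. The upper decile of r was 0.47, 0.46, 0.66 and 0.52 for the same genes. The r of Abcg2 with Abcb1a, Abcb1b and Nr1i2 lay under the upper decile of Abcg2, so many other genes correlated with Abcg2 as strongly. The other pump pairs lay above the upper deciles of both their genes. Nr1i3 went the other way, at -0.61 with Abcb1b and -0.45 with Abcb1a, and stood at 0.03 with Nr1i2.

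The genes whose deviations were most like each member's were named by the same measure. Abcb1a was closest to Rundc3b (r of 0.97), a neighbour whose RefSeq span overlaps its own by 55994 bases, and to the fatty acid oxidation enzymes Eci1 and Ehhadh (0.96 each). Rundc3b averaged 9.63 TPM in ISM012-042, 6.93 TPM in Vehicle and 7.01 TPM in sham. Abcb1b was closest to the lipid genes Osbpl11 (0.88), Fitm2 (0.86) and Agpat2 (0.86). Abcg2 was closest to Lcorl (0.98), to the phospholipase gene Pld1 (0.98) and to the zinc transporter gene Slc30a4 (0.95). Abcc3 was closest to the kinase gene Dgkq (0.95), the aldo-keto reductase gene Akr1c13 (0.95) and the anion exchanger gene Slc4a2 (0.94), and Nr1i2 to Fam234a (0.91) and Pdzd3 (0.89). Nr1i3 was closest to the cytochrome P450 gene Cyp2d12 (0.96) and the creatine transporter gene Slc6a8 (0.92). Cyp2d12 averaged 10.4 TPM in ISM012-042, 4.80 TPM in Vehicle and 79.8 TPM in sham.

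Within P-glycoprotein the Abcb1a copy made up 93.4% to 98.7% of the summed TPM, and exceeded Abcb1b 14.1-fold to 74.2-fold. The log2 ratio of Abcb1b to Abcb1a (each with 1 TPM added) had a mean and SD (6 libraries each) of -5.04 ± 0.85 for ISM012-042, -4.93 ± 0.48 for Vehicle and -5.44 ± 0.31 for sham. It differed by -0.11 between ISM012-042 and Vehicle, by 0.52 between Vehicle and sham and by 0.41 between ISM012-042 and sham. Adjusted over these 3 comparisons, the exact two-sided permutation p was 0.814, 0.169 and 0.500.

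The wider pathway was followed in 6 lists. Of 9 tested ABC transporters outside the set 2 fell in Vehicle against sham and 0 rose, with a median difference of -0.31 against -0.07 over all genes. Of all genes 4.13% fell and 0.326% rose there, the share against which the counts of each of these lists stand. The products of the 2 genes pair up to form the sterol exporter. Abcg5 averaged 1.09 ± 1.54 TPM (SD, n = 6) in Vehicle and 13.6 ± 10.1 TPM (SD, n = 6) in sham, a difference of -2.64 ± 0.56 (limma adjusted p = 0.0125), and Abcg8 averaged 0.439 ± 0.402 TPM in Vehicle and 4.40 ± 2.51 TPM in sham, a difference of -1.79 ± 0.32 (adjusted p = 0.00595). In ISM012-042 against sham Abcg8 fell, by 1.42 ± 0.32 (adjusted p = 0.0332), and the cholesterol exporter gene Abca1 rose, at 9.67 ± 5.63 TPM in ISM012-042 and 3.03 ± 1.24 TPM in sham (adjusted p = 0.0483).

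Of 10 tested uptake transporters the prostaglandin carrier gene Slco2a1 fell in Vehicle against sham, to 16.6 ± 4.55 TPM in Vehicle against 38.2 ± 9.79 TPM in sham (difference of -1.16 ± 0.22, limma adjusted p = 0.00710). The organic anion carrier gene Slco4a1 rose in ISM012-042 against sham, at 3.76 ± 0.366 TPM in ISM012-042 and 1.79 ± 0.813 TPM in sham (adjusted p = 0.0324). The 8 other tested uptake transporters passed in neither comparison, and the list's median in Vehicle against sham was -0.01.

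Of 18 metabolic target genes of PXR and CAR, 17 were matched and 13 tested, with 2 lower and 0 higher in Vehicle against sham and a median of -0.54. Akr1b7, an aldehyde reductase, averaged 1.90 ± 1.46 TPM in Vehicle and 5.51 ± 0.989 TPM in sham (difference of -1.27 ± 0.23, limma adjusted p = 0.00607), and fell also in ISM012-042 against sham (-1.14 ± 0.23, adjusted p = 0.0178). The glutathione transferase gene Gstm1 averaged 97.9 ± 21.3 TPM in Vehicle and 182 ± 46.6 TPM in sham (difference of -0.87 ± 0.18, adjusted p = 0.00899). The classical liver targets were at or near 0 in this tissue, since Cyp3a11 and Cyp2b10 had medians of 0 and highest values of 0.372 and 0.0480 TPM, and Cyp2c29 was listed at 0 throughout. Other targets of the list were well expressed, with medians of 354 TPM for Cyp2c55, 60.3 TPM for Cyp2c65, 57.7 TPM for Ces2a and 49.6 TPM for Ugt1a1.

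Among 14 tested partners and coregulators of PXR and CAR 2 fell in Vehicle against sham and 0 rose, with a median of -0.13. Ppargc1a, a coactivator of nuclear receptors, averaged 8.01 ± 4.38 TPM in Vehicle and 24.7 ± 6.47 TPM in sham (difference of -1.61 ± 0.31, limma adjusted p = 0.00718), and Hnf4a, a receptor that maintains the epithelial programme, averaged 163 ± 38.5 TPM in Vehicle and 253 ± 32.3 TPM in sham (-0.66 ± 0.15, adjusted p = 0.0173). Of 15 other sensors that regulate pumps the vitamin D receptor gene Vdr fell, to 77.4 ± 23.2 TPM in Vehicle against 140 ± 36.9 TPM in sham (adjusted p = 0.0314). Of 9 genes of the apical scaffold Slc9a3r1, which anchors transporters under the brush border, fell to 153 ± 28.2 TPM in Vehicle against 211 ± 19.7 TPM in sham (adjusted p = 0.0368). None of these 3 lists had a member that passed in ISM012-042 against sham, where their medians were 0.09, 0.20 and -0.03.

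**Figure D4:**
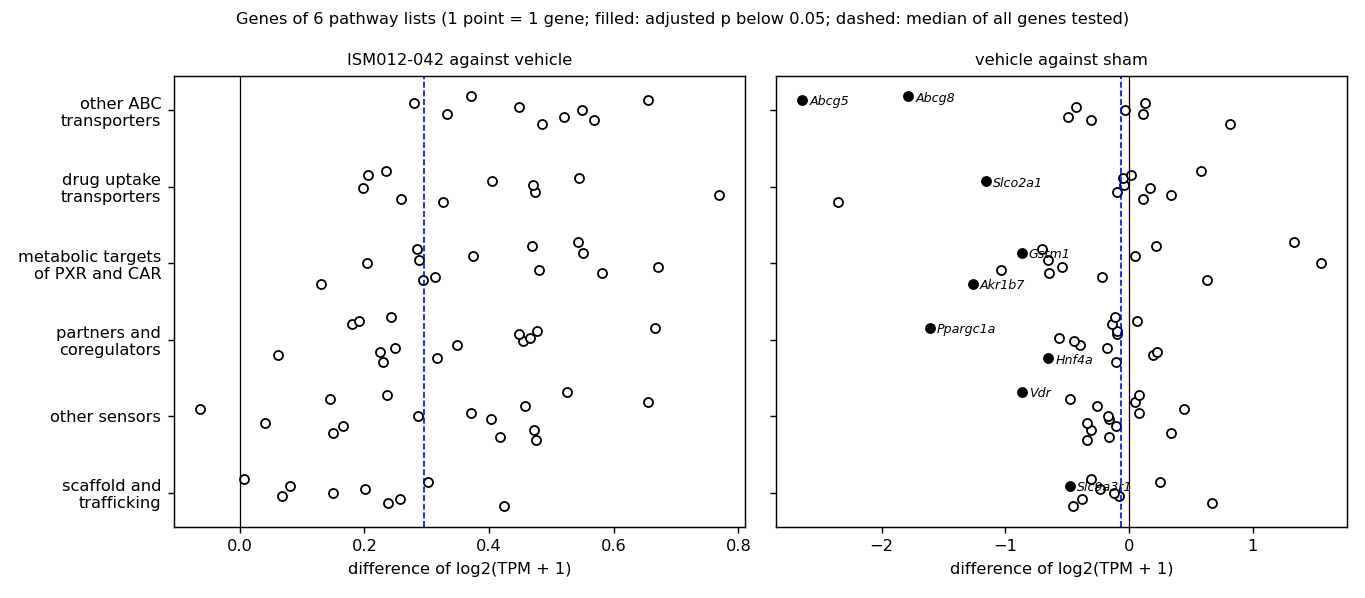
Difference of log2(TPM + 1) (horizontal axis) for the tested genes of the 6 pathway lists in ISM012-042 against Vehicle and in Vehicle against sham, 1 point per gene, filled and named where limma's adjusted p was under 0.05, with the median of all genes tested as a dashed line. No gene is filled for ISM012-042 against Vehicle, and the 9 filled genes of Vehicle against sham all lie below 0, from Abcg5 at -2.64 to Slc9a3r1 at -0.48.

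In ISM012-042 against Vehicle 0 of the 70 tested genes of these lists passed, and their medians lay between 0.20 and 0.48, against 0.30 over all genes. The genes of smallest unadjusted p were Abcc10 and Abcc5 among pumps (0.52 ± 0.18 and 0.55 ± 0.23), Slc29a1 and Slco2b1 among uptake carriers (0.47 ± 0.17 and 0.54 ± 0.21) and Gstm1 and Aldh1a7 among metabolic targets (0.55 ± 0.18 and 0.58 ± 0.29). Among partners Ncoa2 stood at 0.45 ± 0.18, and among sensors the genes were Epas1, a hypoxia-inducible factor, and Nr3c1, the glucocorticoid receptor (0.47 ± 0.16 and 0.46 ± 0.19). Among scaffold genes Ezr and Slc9a3r2 stood at 0.42 ± 0.18 and 0.30 ± 0.20. Their limma adjusted p lay between 0.233 and 0.349.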

How the data were processed

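Per the labels' protocols, colon was homogenized in TRI Reagent, total RNA was purified (RNeasy Mini) and cDNA was made (FastKing RT). The authors deposited 1 table of TPM for 35976 gene symbols in 18 libraries. The submitters' processing notes name the build mm10 and DRAGEN 4.0.3 without a role, and the sources used here give no counting rule, annotation or strand. TPM sum to 1000000 per library, so abundant mitochondrial transcripts lower all other values, and depth cannot be recovered. Groups came from sample titles. No 2 libraries were identical. The members and lists were chosen with earlier results of these data known.

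Values were set to log2(TPM + 1), filtered at 1 TPM in at least 6 libraries, and fitted over 14129 genes with all 18 libraries in limma 3.58.1 (R 4.3.3), with trend and robust settings and Benjamini-Hochberg adjustment at 0.05. The fit was tested on simulated data with independent noise per gene and library, so shifts shared by a whole library were not covered. Abcc2 and the Abcb1b to Abcb1a ratio were tested with exact two-sided permutations. All members are named. For each tested member the 3 genes of highest correlation of deviations with a mean of at least 5 TPM are named, leaving out predicted, mitochondrial and immune receptor genes. Of the 6 pathway lists up to 4 passing genes are named, or the 2 of smallest unadjusted p where none passed. Of the genes these rules name, 3 are not reported here. The 10 marker lists give counts and sums. Sequences are from RefSeq (GRCm38.p6, the assembly of mm10) and GENCODE. Alternatives were other pseudocounts, filters, scalings, covariates and weights, the replicate block, and leaving out libraries. The Hoxb13 covariate with median-ratio scaling, the epithelial covariate with median-ratio scaling, the Hoxb13 sets, their interaction and the mitochondrial limit were added after seeing the data.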

Additional observations from a re-analysis of the deposited data

Results flagged for a closer look

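Nr1i2 in sham replicate 4, at 64.0 TPM, stood far above the other 5 sham libraries, which spanned 43.7 to 48.1 TPM. The gap to the next library was 0.78 of the group's range, above Dixon's 95% critical value for 6 samples. Of 21 groups examined this was the only one, and chance flags about 1 in 20.

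The Vehicle against sham difference of Abcg2 was 1.67 ± 0.39 higher on the log2 scale in high than in low Hoxb13 libraries (interaction term in limma, adjusted p = 0.0145). These sets were defined from the data and hold 3 Vehicle and 4 sham libraries of high Hoxb13, and 3 Vehicle and 2 sham libraries of low Hoxb13. The 3 Vehicle libraries of low Hoxb13 were also those over 40% mitochondrial. Of all genes tested 25.1% passed the same test. The median Vehicle against sham difference over all genes was 0.19 in high and -0.40 in low Hoxb13 libraries.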

How the results depend on the processing

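Over 37 alternatives 0 members passed in ISM012-042 against Vehicle. In Vehicle against sham 1 member passed as reported, 2 with no filter (Nr1i3 and Abcc2) and with the Hoxb13 covariate, 4 with that covariate and median-ratio scaling and within low Hoxb13 libraries, 0 without libraries over 40% mitochondrial, and 1 to 2 on leaving out each library. With a minimum of 5 TPM, which removes Nr1i3, the 1 member was Abcc3 (limma adjusted p = 0.0475). In ISM012-042 against sham 1 passed as reported and 0 with a pseudocount of 0.1, no filter, a minimum of 5 TPM, the replicate block, without both replicates 2 of the colitis groups, with the epithelial covariate and median-ratio scaling, and without libraries over 40% mitochondrial, with 0 to 1 on leaving out each library. Nr1i3 passed in 35 of 36 alternatives in Vehicle against sham and 22 of 36 in ISM012-042 against sham. Abcc3 passed in 7 of 37 in Vehicle against sham. Leaving out the libraries over 40% mitochondrial also removes every Vehicle library of low Hoxb13. Elsewhere the cause was not tested.

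Of 660 values over 18 results 20 took the opposite sign. In ISM012-042 against Vehicle these were Nr1i2 at -0.067 (median-ratio scaling), -0.0069 (quantile normalization) and -0.030 (Hoxb13 covariate with median-ratio scaling), and Nr1i3 at -0.036 (low Hoxb13). In Vehicle against sham it was Abcg2 at 0.15 (high Hoxb13). In ISM012-042 against sham Abcb1a stood at 0.24 (array weights), 0.036 (without ISM012-042 replicate 2, and without both replicates 2), 0.17 (epithelial covariate with median-ratio scaling) and 0.19 (low Hoxb13). Abcb1b stood at -0.084 (quantile normalization) and -0.18 (Hoxb13 covariate with median-ratio scaling). Abcg2 stood at 0.081 (array weights), 0.016 (epithelial covariate), 0.025 (without sham replicate 1), 0.20 (epithelial covariate with median-ratio scaling) and 0.15 (high Hoxb13). Abcc3 stood at 0.21 (array weights) and 0.046 (epithelial covariate with median-ratio scaling), and Nr1i2 at 0.079 (low Hoxb13). On leaving out each library in this comparison Abcb1a spanned -0.48 to 0.036 and Abcg2 -0.30 to 0.025.

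The Abcb1b to Abcb1a ratio in ISM012-042 against Vehicle was 0.057 with a pseudocount of 0.1 and -0.41 to 0.042 on leaving out each library. In Vehicle against sham it spanned 0.40 to 0.66, with an unadjusted exact p of 0.0173 without Vehicle replicate 6, 0.0390 without Vehicle replicate 3 and 0.0433 without sham replicate 3. Abcc2 spanned 0.064 to 0.11 in ISM012-042 against Vehicle (exact p of 0.0390 to 0.160) and -0.16 to -0.11 in ISM012-042 against sham (0.0130 to 0.0649), and was -0.13 there with no filter (limma adjusted p = 0.207).

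The replicate numbers gave little sign of pairing the libraries. The correlation of deviations was over 0.1 in 6 of 18 same-numbered pairs, spanning -0.38 to 0.61. In 2 of these 18 comparisons the best correlated library of the other group had the same number. With the replicate block Nr1i3 had an adjusted p of 0.0156 in Vehicle against sham and 0.0598 in ISM012-042 against sham, with unchanged differences of -1.86 and -1.49. Unknown depth limits Abcc2, Nr1i3 and other genes near 0 most.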
